A study of Mus musculus with 13 samples.

Results

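The 7 tetraspanin genes Cd9, Cd63, Cd53, Cd37, Cd81, Cd82 and Cd151 were taken by exact name from the 20971 genes of a table of RPKM values (read counts scaled to gene length and library size). The libraries came from cortex RNA of 13 C57BL/6 mice that were 6 months old. Of these, 7 were labelled APPPS1;Apoe-/- and lacked the gene for apolipoprotein E, the main lipid carrier of the brain, and 6 were labelled APPPS1 and had it. By the labels all 13 carried the APPPS1 transgenes, which drive mutant human amyloid precursor protein and presenilin from the neuronal Thy1 promoter and lead to plaques in the cortex. No group labelled as free of these transgenes was analysed here, but the values of 2 libraries labelled APPPS1;Apoe-/- go against their label, as described below. All 7 genes were above the filter of a mean of 0.5 RPKM and were tested with 13343 genes in all.

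Tetraspanins are small proteins that cross the membrane several times and gather integrins, immunoglobulin-family proteins and proteases into membrane microdomains. Cd53 and Cd37 are made chiefly by leukocytes, to which microglia, the resident macrophages of the brain, belong. Cd9, Cd63, Cd81, Cd82 and Cd151 are made by many cell types. Cd63 sits in late endosomes and lysosomes and, with Cd9 and Cd81, is widely used to mark extracellular vesicles. Cd9 and Cd63 are also among the genes that microglia raise when they surround amyloid plaques.

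Apoe was at 4.01 to 6.35 RPKM in the APPPS1;Apoe-/- libraries and at 463 to 670 RPKM in the APPPS1 libraries, as labelled. The table gives no read counts per gene. Alignments numbered 18455493 to 34538031 in the APPPS1;Apoe-/- libraries and 28402328 to 77005806 in the APPPS1 libraries, so depth differed with genotype. APPPS1;Apoe-/- replicates 2 and 5 stood apart in genes other than tetraspanins. App, to which transgene reads can align, was at 106 and 116 RPKM there, against 176 to 217 RPKM elsewhere. Thy1, whose promoter drives the transgenes, was at 52.2 and 56.9 RPKM there, against 172 to 245 RPKM in the other 11. Clec7a, a receptor gene of plaque-associated microglia, was at 0.149 and 0.256 RPKM, against 1.35 to 8.61 RPKM, and Gfap, raised in reactive astrocytes, was at 51.7 and 50.1 RPKM, against 132 to 301 RPKM. These values do not bear out the labelled transgenes or plaques in these 2 libraries, and whether the mice carried them was not tested. The pair is called the low-App libraries. Results are also given without them where this is stated, and the rest use all 7 libraries labelled APPPS1;Apoe-/-. The 6 neuron genes examined summed to 2442 to 3032 RPKM in APPPS1;Apoe-/- and 2333 to 2794 RPKM in APPPS1 libraries. Most of each sum was 1 gene, Snap25, at 2101 to 2694 RPKM and 1991 to 2458 RPKM, so the sums say little of the others. From RPKM, the longest annotated coding transcript and the alignments, the fewest reads behind a value were about 120 for Cd37 and about 10370 for Cd81.

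With all libraries as labelled, 4 of the 7 tetraspanins were lower in Apoe-deficient cortex, namely Cd37, Cd9, Cd53 and Cd63, and Cd82 was higher. Cd81 and Cd151 did not pass the test. The test was limma on log2(RPKM + 0.5), two-sided, with Benjamini-Hochberg adjustment over all genes tested and a threshold of 0.05. Of all genes tested, 4.74% were called lower and 3.48% higher, 8.23% together. The same 5 members were called without the low-App libraries, where 3.3% of all genes were lower and 1.78% higher, 5.07% together. Because depth differed with genotype, the fit was repeated with alignments (log2) as a covariate. Then 1 member, Cd63, was lower and 0 were higher, while 0.989% of all genes were lower and 0.525% higher, 1.51% together. With that covariate and without the low-App libraries, 3 members (Cd9, Cd63 and Cd37) were lower and Cd82 was higher, where 1.48% of all genes were lower and 0.63% higher, 2.11% together. The median change of the 7 members was -0.47, and that of all tested genes was -0.01. A negative log2 change means a lower value of log2(RPKM + 0.5) in APPPS1;Apoe-/- cortex. In whole cortex, fewer cells of a type and less RNA per cell cannot be told apart.

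**Figure D1:**
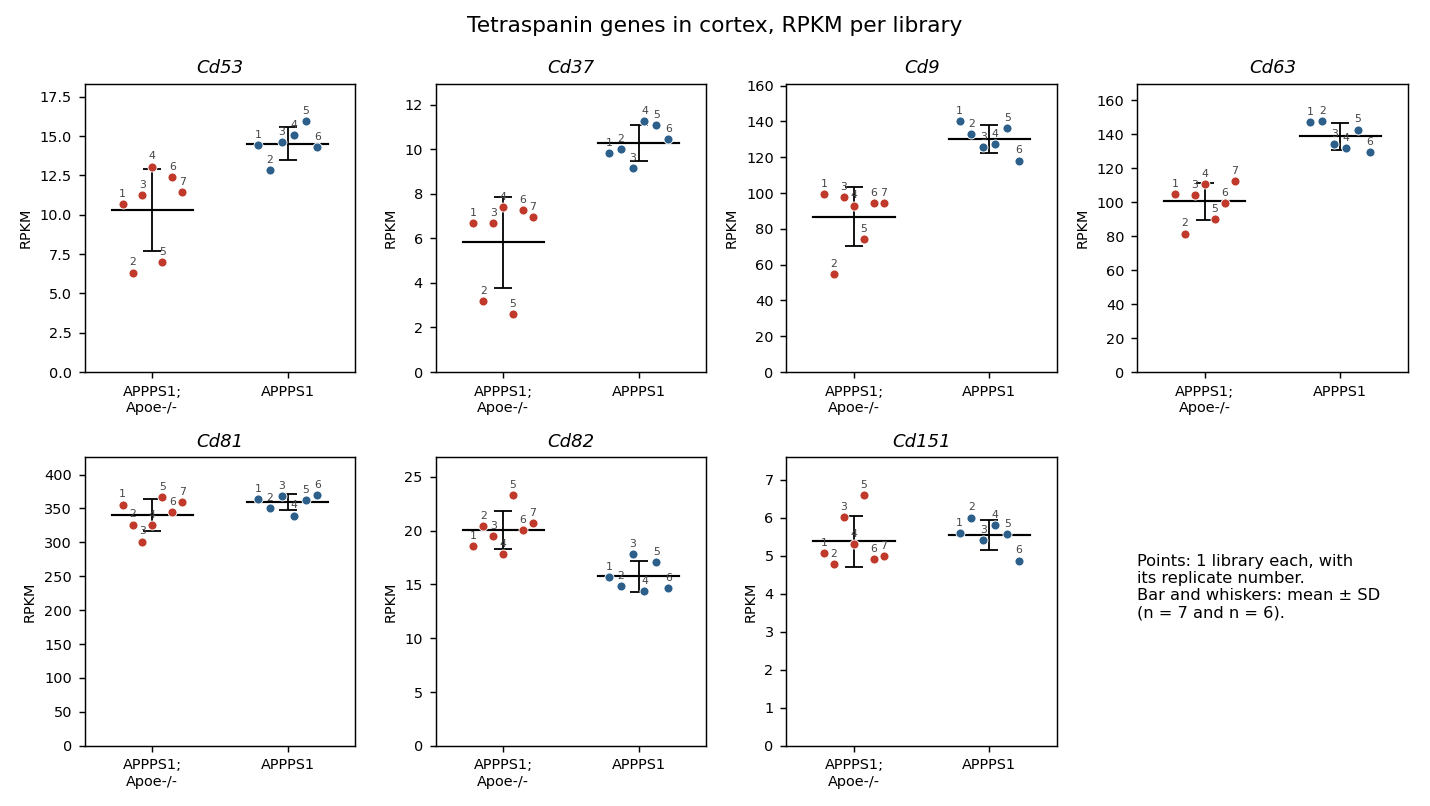
Level of each tetraspanin in RPKM on vertical axes that start at 0. Each point is 1 library, numbered by replicate, in columns for APPPS1;Apoe-/- (n = 7) and APPPS1 (n = 6) with the group mean and SD drawn in. Cd37, Cd9 and Cd63 lie lower in every APPPS1;Apoe-/- library than in any APPPS1 library, and replicates 2 and 5 are lowest for Cd53, Cd37, Cd9 and Cd63.

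The immune-restricted pair Cd53 and Cd37 organises receptors on leukocyte membranes. In mm10, Cd53 spans 106759921 to 106790149 of chromosome 3 and Cd37 spans 45233632 to 45239115 of chromosome 7, both on the minus strand. Since both fell, their RefSeq promoter windows (build GRCm38.p6, minus strand, 250 bases before to 50 after the start site) are shown here with GAGGAA, a core that the myeloid factor PU.1 can bind, in capitals on either strand. In the Cd37 window the E-box CACGTG is in capitals too. All 7 members matched an entry of the promoter table. The windows lie at chr3:106790100-106790399 for Cd53 and chr7:45238790-45239089 for Cd37.
Cd53: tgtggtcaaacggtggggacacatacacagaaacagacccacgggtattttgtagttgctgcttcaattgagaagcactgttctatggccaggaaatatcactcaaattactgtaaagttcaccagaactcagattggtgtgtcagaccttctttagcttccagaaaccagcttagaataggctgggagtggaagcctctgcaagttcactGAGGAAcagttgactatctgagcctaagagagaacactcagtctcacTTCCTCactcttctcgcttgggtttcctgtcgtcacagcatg
Cd37: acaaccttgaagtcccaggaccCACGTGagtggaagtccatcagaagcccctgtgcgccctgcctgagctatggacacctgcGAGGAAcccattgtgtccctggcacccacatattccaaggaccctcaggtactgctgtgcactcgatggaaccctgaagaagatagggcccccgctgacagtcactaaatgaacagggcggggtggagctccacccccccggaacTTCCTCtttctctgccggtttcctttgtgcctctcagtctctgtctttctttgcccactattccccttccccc
Each window held GAGGAA once on each strand. In Cd53 it began 39 bases before the start site and, reading TTCCTC, 8 bases after it. In Cd37 it began 168 bases before it and, reading TTCCTC, 23 bases before it. Of the other members, Cd63 held it 2 times and so did 1 of 4 start sites of Cd82, while Cd9, Cd81 and Cd151 held none in these windows. Over all 32851 promoter windows, 28.3% held GAGGAA and 7.15% held CACGTG, so a match is common. The letters overlap in no pair of these motifs, and a match describes the window only.

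Cd53 ran from 6.32 to 13.1 RPKM in the APPPS1;Apoe-/- libraries (median 11.3) and from 12.8 to 15.9 RPKM in the APPPS1 libraries (median 14.5). The groups met at their edges, where APPPS1;Apoe-/- replicate 4 lay above APPPS1 replicate 2. Cd53 averaged 10.3 ± 2.62 RPKM (SD, n = 7) in APPPS1;Apoe-/- and 14.5 ± 1.02 RPKM (SD, n = 6) in APPPS1 cortex, a ratio of 0.709. The log2 change was -0.52 ± 0.14 (SE, limma adjusted p = 0.0344). Without the low-App libraries, where Cd53 was at 6.32 and 6.98 RPKM, it was -0.29 ± 0.06 (adjusted p = 0.0171), with the other 5 APPPS1;Apoe-/- libraries at 10.7 to 13.1 RPKM. This call was the least firm of the 5. It ended when any 1 of APPPS1;Apoe-/- replicate 5 and APPPS1 replicates 1, 3, 4, 5 and 6 was left out, with a log2 change of -0.43, -0.52, -0.51, -0.50, -0.49 and -0.52 and adjusted p from 0.0522 to 0.0687. With the alignments covariate it was -0.44 (adjusted p = 0.234).

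Cd37 had the largest change of the 7. It ran from 2.59 to 7.39 RPKM in the APPPS1;Apoe-/- libraries (median 6.70) and from 9.16 to 11.3 RPKM in the APPPS1 libraries (median 10.2). No APPPS1;Apoe-/- library reached the lowest APPPS1 library, and 2.17% of all tested genes showed such a gap in this direction (2.84% without the low-App libraries). The means were 5.83 ± 2.03 RPKM (SD, n = 7) in APPPS1;Apoe-/- and 10.3 ± 0.802 RPKM (SD, n = 6) in APPPS1 cortex, and the log2 change was -0.85 ± 0.20 (SE, limma adjusted p = 0.0159). The low-App libraries, at 3.18 and 2.59 RPKM, carried part of its size. Among the other 5 APPPS1;Apoe-/- libraries Cd37 varied little, at 7.01 ± 0.320 RPKM (SD, n = 5), and the change was -0.52 ± 0.06 (adjusted p = 0.000158). The alignments covariate ended the call over all libraries (-0.76, adjusted p = 0.149) and kept it without the low-App libraries (-0.62, adjusted p = 0.000148).

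Cd9, which joins integrins to immunoglobulin-family partners such as Igsf8 and which oligodendrocytes and activated microglia express, spans 125460266 to 125494791 of chromosome 6 (minus strand). It ran from 54.8 to 99.3 RPKM in the APPPS1;Apoe-/- libraries (median 94.5) and from 118 to 140.1 RPKM in the APPPS1 libraries (median 130.2). The groups did not overlap, and replicates 2 and 5, at 54.8 and 74.3 RPKM, were the lowest of all 13. It averaged 86.9 ± 16.4 RPKM (SD, n = 7) in APPPS1;Apoe-/- and 130.1 ± 7.95 RPKM (SD, n = 6) in APPPS1 cortex. The log2 change was -0.60 ± 0.11 (SE, limma adjusted p = 0.00466), and -0.44 ± 0.05 without the low-App libraries (adjusted p = 0.000142). With the alignments covariate it was -0.56 over all libraries, which missed the threshold (adjusted p = 0.0770), and -0.44 without the low-App libraries (adjusted p = 0.00286).

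Cd63, a carrier of cargo to late endosomes, spans 128900989 to 128912822 of chromosome 10 (plus strand). It ran from 81.5 to 112.6 RPKM in the APPPS1;Apoe-/- libraries (median 104) and from 129.6 to 148 RPKM in the APPPS1 libraries (median 139). The groups were apart, with replicates 2 and 5 again lowest, at 81.5 and 90.2 RPKM. It averaged 100.4 ± 11.2 RPKM (SD, n = 7) in APPPS1;Apoe-/- and 139 ± 7.92 RPKM (SD, n = 6) in APPPS1 cortex. The log2 change was -0.47 ± 0.07 (SE, limma adjusted p = 0.000910) and -0.38 ± 0.05 without the low-App libraries (adjusted p = 0.000588). Cd63 was the member whose call held with the alignments covariate over all libraries (-0.44, adjusted p = 0.0323).

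Cd81, the most abundant of the 7 and a regulator of receptor traffic at the cell surface, showed no called change. Its gene spans 143052739 to 143067934 of chromosome 7 (plus strand). It ran from 301 to 366 RPKM in the APPPS1;Apoe-/- libraries (median 345) and from 339.5 to 369.8 RPKM in the APPPS1 libraries (median 363), with wide overlap. The log2 change was -0.08, with a 95% confidence interval from -0.19 to 0.03 (limma adjusted p = 0.341), and -0.09 (interval -0.21 to 0.02) without the low-App libraries. The low-App libraries, at 326 and 366 RPKM, did not stand apart for this gene.

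Cd151, which binds laminin receptors of the integrin family in epithelium and endothelium, had the lowest mean of the members in both groups. Its gene spans 141467392 to 141471473 of chromosome 7 (plus strand). It ran from 4.78 to 6.60 RPKM in the APPPS1;Apoe-/- libraries (median 5.06) and from 4.87 to 6.00 RPKM in the APPPS1 libraries (median 5.58). The log2 change was -0.04 (95% confidence interval -0.20 to 0.11, limma adjusted p = 0.756), and -0.07 without the low-App libraries (adjusted p = 0.580). The low-App libraries were the lowest and the highest of their group, at 4.78 and 6.60 RPKM. The interval leaves room for a fall of 0.20 or a rise of 0.11 on this scale.

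Cd82, known as a metastasis suppressor and expressed by oligodendrocytes among other cells, went the other way. Its gene spans 93419111 to 93463140 of chromosome 2 (minus strand). It ran from 17.83 to 23.3 RPKM in the APPPS1;Apoe-/- libraries (median 20.1) and from 14.4 to 17.81 RPKM in the APPPS1 libraries (median 15.3). The groups were apart by the narrowest of margins, between APPPS1;Apoe-/- replicate 4 and APPPS1 replicate 3, and 1.54% of all tested genes lay wholly higher in APPPS1;Apoe-/- cortex (1.99% without the low-App libraries). It averaged 20.1 ± 1.76 RPKM (SD, n = 7) in APPPS1;Apoe-/- and 15.7 ± 1.40 RPKM (SD, n = 6) in APPPS1 cortex. The log2 change was 0.34 ± 0.07 (SE, limma adjusted p = 0.00513) and 0.29 ± 0.06 without the low-App libraries (adjusted p = 0.0184). With the alignments covariate it was 0.35 (adjusted p = 0.0575), and 0.35 without the low-App libraries (adjusted p = 0.0345).

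**Figure D2:**
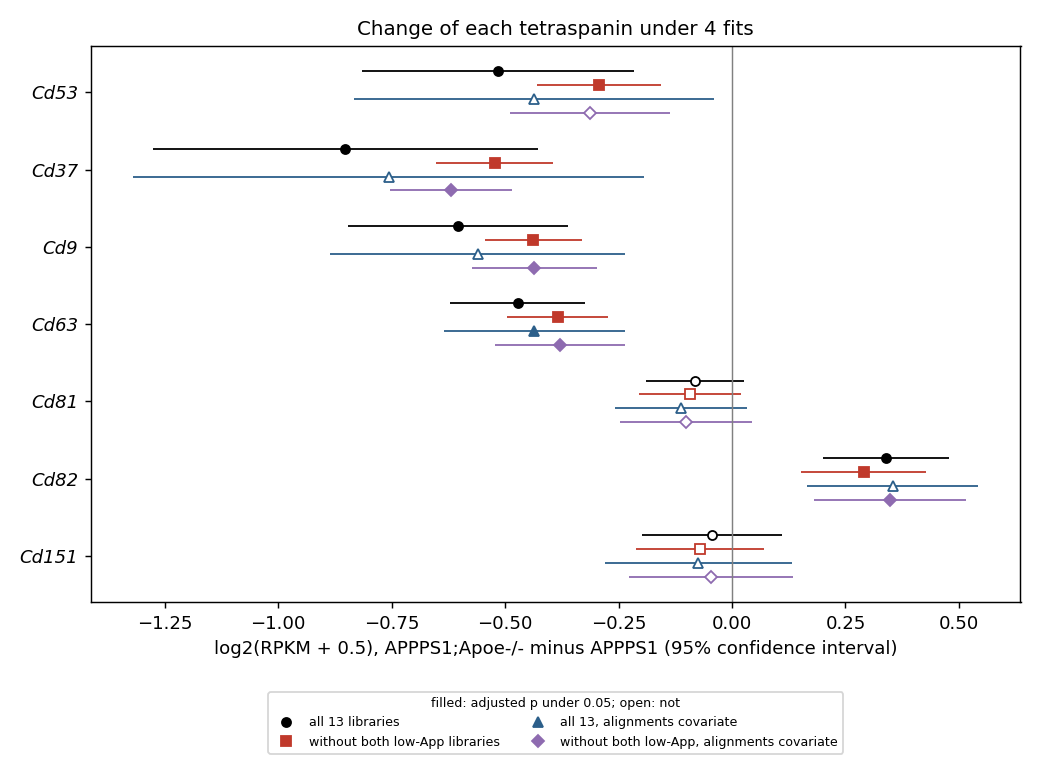
Difference of log2(RPKM + 0.5), APPPS1;Apoe-/- minus APPPS1, for each tetraspanin under 4 fits, with its 95% confidence interval; filled symbols passed an adjusted p of 0.05. Cd53, Cd37, Cd9 and Cd63 lie left of 0 and Cd82 right of it in every fit, while the intervals of Cd81 and Cd151 include 0.

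Immune-restricted and broadly expressed members were set side by side in each library, as a description without a test because the members were chosen with results known. The mean log2 value of Cd53 and Cd37 was 2.98 ± 0.48 in APPPS1;Apoe-/- and 3.67 ± 0.09 in APPPS1 libraries (SD, n = 7 and n = 6), a difference of -0.68. For the mean of the 5 broad members it was 5.68 ± 0.10 and 5.85 ± 0.06, a difference of -0.17. The immune mean minus the broad mean lay between -3.47 and -2.31 in APPPS1;Apoe-/- libraries and between -2.31 and -2.04 in APPPS1 libraries, so the groups were only just apart. The difference of these gaps was -0.51 with all libraries and -0.27 without the low-App libraries. The broad members did not move as 1 group. Cd9 and Cd63 fell with Cd53 and Cd37, Cd82 rose, and their changes spanned -0.60 to 0.34. Without the low-App libraries the change of Cd9 (-0.44) and that of Cd63 (-0.38) were larger in size than that of Cd53 (-0.29), which no test compared.

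Most listed markers of microglia moved with the 4 lower tetraspanins. The pan-microglia list had 13 tested genes, of which 9 passed as lower, 0 as higher and 4 did not pass. Those 4 were Aif1, C1qa, P2ry12 and Tmem119, though 12 of the 13 had a limma unadjusted p under 0.05. Tmem119 averaged 6.04 RPKM in APPPS1;Apoe-/- (6.53 RPKM without the low-App libraries) and 6.33 RPKM in APPPS1 cortex. The median change over the 13 was -0.61. The lower genes included the transcription factor gene Irf8 (-0.89, limma adjusted p = 0.000134) and the CD45 gene Ptprc (-0.75, adjusted p = 0.00207). The summed level of the 14 listed pan-microglia genes was 299 to 583 RPKM in APPPS1;Apoe-/- and 663 to 786 RPKM in APPPS1 libraries, lowest in the low-App libraries at 299 and 337 RPKM, and no marker was at 0 throughout. Of 12 plaque-induced microglia genes 11 were lower and 0 higher (median -1.17), led by Itgax, Clec7a and Ctsd (-1.10, -2.35 and -0.86, limma adjusted p = 1.56e-05, 0.000207 and 0.000558). Their summed level was 411 to 821 RPKM in APPPS1;Apoe-/- and 1202 to 1404 RPKM in APPPS1 libraries. The counts were again 9 and 11 lower when the low-App libraries were left out, with medians of -0.37 and -0.91. With the alignments covariate 1 pan-microglia gene (Irf8) and 5 plaque-induced genes were lower, with medians of -0.60 and -1.10. The part of these genes in the changes of the tetraspanins was not tested.

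Relative to the mean log2 value of the 13 pan-microglia genes in the same library, the members spread into 3 patterns. Cd53 and Cd9 kept their distance, and Cd63 did so outside the low-App libraries. Cd53 was -0.84 ± 0.05 from that mean in APPPS1;Apoe-/- and -0.91 ± 0.08 in APPPS1 libraries. Cd9 was 2.19 ± 0.13 and 2.21 ± 0.10 from it, and Cd63 was 2.41 ± 0.21 and 2.31 ± 0.12 from it (SD, n = 7 and n = 6). In all 3 the groups overlapped. Cd63 stood at 2.71 and 2.69 in the low-App libraries, against at most 2.48 in APPPS1 libraries. In the other 5 APPPS1;Apoe-/- libraries Cd63 was 2.30 ± 0.10 from the pan-microglia mean (SD, n = 5). Cd37 was lower than this mean by more in every APPPS1;Apoe-/- library, at -2.19 to -1.49 in these and -1.48 to -1.24 in APPPS1 libraries, so the groups were barely apart. Cd81, Cd82 and Cd151 were higher relative to it by 0.50, 0.92 and 0.54 on average, and the groups were apart for Cd81 and Cd82, for Cd81 by little (lowest 3.82 in APPPS1;Apoe-/- and highest 3.81 in APPPS1 libraries). These differences were 0.29, 0.67 and 0.31 without the low-App libraries. These are descriptions, without a test.

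**Figure D3:**
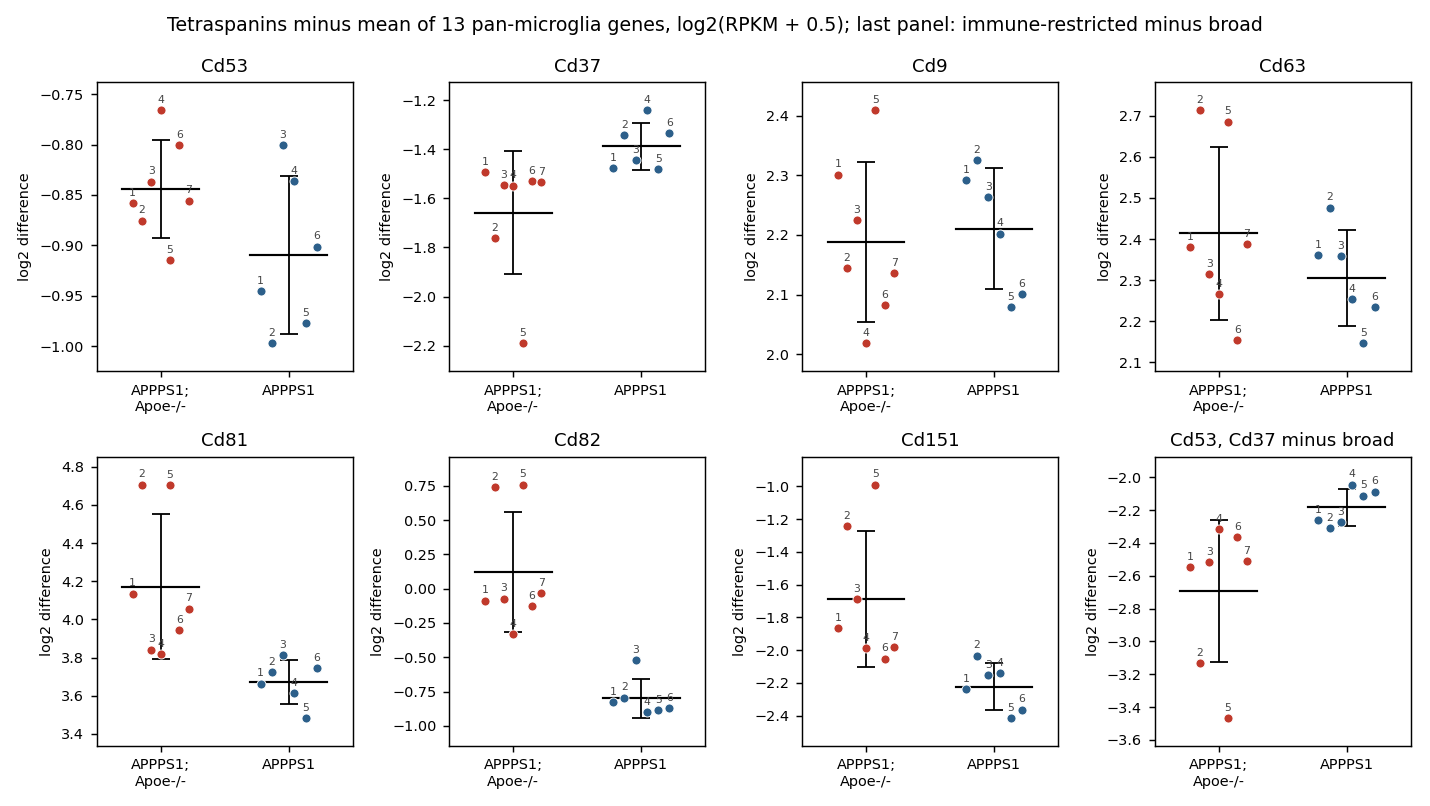
Value of log2(RPKM + 0.5) of each tetraspanin minus the mean of 13 pan-microglia genes in each library (numbered points). The last panel gives the mean of Cd53 and Cd37 minus that of the 5 broad members. Bars and whiskers are the mean and SD (n = 7 and n = 6), and the vertical axes do not start at 0. Cd53, Cd9 and Cd63 overlap between the groups, whereas Cd82 lies at -0.33 to 0.76 in APPPS1;Apoe-/- and -0.90 to -0.52 in APPPS1 libraries.

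Other cell types that carry tetraspanins were read the same way. Of 8 oligodendrocyte genes 3 were higher, 0 lower and 5 did not pass (median 0.27). Those higher included the myelin genes Mog and Mobp (0.36 and 0.40, limma adjusted p = 0.0312 and 0.0333). The 8 genes summed to 944 to 1499 RPKM in APPPS1;Apoe-/- and 840.0 to 1178 RPKM in APPPS1 libraries, and 1329 and 1499 RPKM in the low-App libraries, one of which had the highest Cd82. Without the low-App libraries 0 of the 8 passed by limma (3 at an unadjusted p under 0.05), while Cd82 did. The part of oligodendrocyte RNA in the rise of Cd82 was not tested. Of 7 astrocyte genes 2 were lower, Gfap and Aqp4 (-1.25 and -0.27, limma adjusted p = 0.0108 and 0.0408), and 1 was higher, Gjb6 (0.42, adjusted p = 0.0203). Of 8 endothelial and mural genes only Kdr, a growth factor receptor gene of endothelium, was lower (-0.32, limma adjusted p = 0.0335), and of 6 neuron genes only Slc17a7, a vesicular glutamate transporter gene (-0.42, adjusted p = 0.0245). Of these 5 only Gfap was called without the low-App libraries (-0.79, limma adjusted p = 2.33e-05), where the endothelial tight junction gene Cldn5 was newly called lower (-0.58, adjusted p = 0.0223).

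Blood leukocytes, which also make Cd53 and Cd37, were examined by their own markers. The B cell gene Ms4a1 reached at most 0.136 RPKM in any library. The T cell genes Cd3e and Cd8a reached at most 0.351 and 0.1097 RPKM. Markers with higher levels were the B cell gene Cd79b, at up to 1.05 RPKM, and the neutrophil genes S100a8 and S100a9, at up to 3.29 and 1.60 RPKM. In the low-App libraries S100a8 was at 0.617 and 0.558 RPKM and the B cell gene Cd79a at 0.474 and 0.330 RPKM. Both lay within the APPPS1 ranges, 0.353 to 1.66 RPKM and 0.225 to 0.479 RPKM. Other listed markers lay below their APPPS1 ranges there. Cd79b was at 0.354 and 0.296 RPKM, against 0.568 to 0.920 RPKM in APPPS1 libraries. Cd8a was at 0 in both, against 0.0107 to 0.0955 RPKM. The part of blood leukocytes in the level of Cd37 was not tested. The 11 listed genes of B cells, T cells and neutrophils in the table summed to 1.97 to 6.96 RPKM in APPPS1;Apoe-/- and 2.08 to 3.92 RPKM in APPPS1 libraries. In the low-App libraries the sums were 1.97 and 2.33 RPKM. By limma 0 of the 3 that were tested passed (0 at an unadjusted p under 0.05). The hemoglobin gene Hba-a1 was at 3.06 to 7.14 RPKM in APPPS1;Apoe-/- and 1.29 to 107 RPKM in APPPS1 libraries, highest in APPPS1 replicates 1, 2 and 4. With the alignments covariate 0 of 4 erythroid genes were called by limma, but 4 had an unadjusted p under 0.05. Red cell RNA thus differed between libraries, and its bearing on the members was not tested.

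The order of the mean levels was the same in both groups, namely Cd81, Cd63, Cd9, Cd82, Cd53, Cd37 and Cd151, and no test was run on the ratios between them. Cd81 was 3.38 times the mean of Cd63 in APPPS1;Apoe-/- and 2.58 times in APPPS1 cortex, and Cd63 exceeded Cd9 in 7 of 7 and 6 of 6 libraries, though their ranges overlapped. Cd9 was 4.33 times the mean of Cd82 in APPPS1;Apoe-/- and 8.26 times in APPPS1 cortex. Cd82 was 1.36 to 3.34 times Cd53 in APPPS1;Apoe-/- cortex and 0.956 to 1.22 times Cd53 in APPPS1 cortex, where their ranges overlapped. Cd37 exceeded Cd151 in 6 of 6 APPPS1 libraries, by 1.67 to 2.15 times. In the low-App libraries Cd37 was below Cd151, at 0.666 and 0.392 of it, and in the other 5 APPPS1;Apoe-/- libraries it was above, by 1.11 to 1.48 times.

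The rest of the family was compared with the 7 members. Of 24 other tetraspanin genes 18 were tested. Of these, 4 were lower, 3 higher and 11 did not pass, with a median change of -0.04. Those lower were Tspan17, a partner of the sheddase Adam10, Upk1b, Rom1, a photoreceptor disc protein, and Tspan4 (-0.42, -0.38, -0.35 and -0.33; limma adjusted p = 0.0143, 0.0346, 0.0356 and 0.0388). Those higher were Upk1a, Tspan2, a tetraspanin of oligodendrocytes, and Tspan11 (1.10, 0.31 and 0.38; limma adjusted p = 3.53e-05, 0.0127 and 0.0479). Without the low-App libraries only Tspan4 (-0.37, limma adjusted p = 0.0431) and Upk1a (1.06, adjusted p = 0.000101) were called. With the alignments covariate over all libraries only Rom1 (-0.49, limma adjusted p = 0.0449) and Upk1a (1.22, adjusted p = 0.000507) were called. Tspan4 (-0.36) then missed the threshold (adjusted p = 0.133). When 1 library was left out at a time, the calls of Tspan2, Tspan17 and Upk1a held in all 13 fits, those of Tspan4 and Upk1b in 6 and those of Rom1 and Tspan11 in 3. Tspan7, a neuronal tetraspanin and the most abundant of the family, was at 1165 ± 87.8 RPKM in APPPS1;Apoe-/- and 1008 ± 95.9 RPKM in APPPS1 cortex (SD, n = 7 and n = 6, limma adjusted p = 0.0645).

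Upk1a, which encodes a urothelial plaque protein, had the largest change of any tested tetraspanin. It was at 0.919 to 1.48 RPKM in the APPPS1;Apoe-/- libraries (median 0.987) and at 0.128 to 0.434 RPKM in the APPPS1 libraries (median 0.230). The groups did not overlap, and the low-App libraries, at 1.48 and 0.948 RPKM, lay within their group's range. The ratio of the means was 4.43. The log2 change of 1.10 depends on the added constant, at 1.83 with 0.1 RPKM and 0.75 with 1 RPKM added, and passed the threshold with each. Its gene lies on chromosome 7 at positions 30603092 to 30612847, 10.9 Mb from Apoe. A change through the deletion of Apoe and one through linked sequence carried with the allele cannot be told apart for Upk1a.

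**Figure D4:**
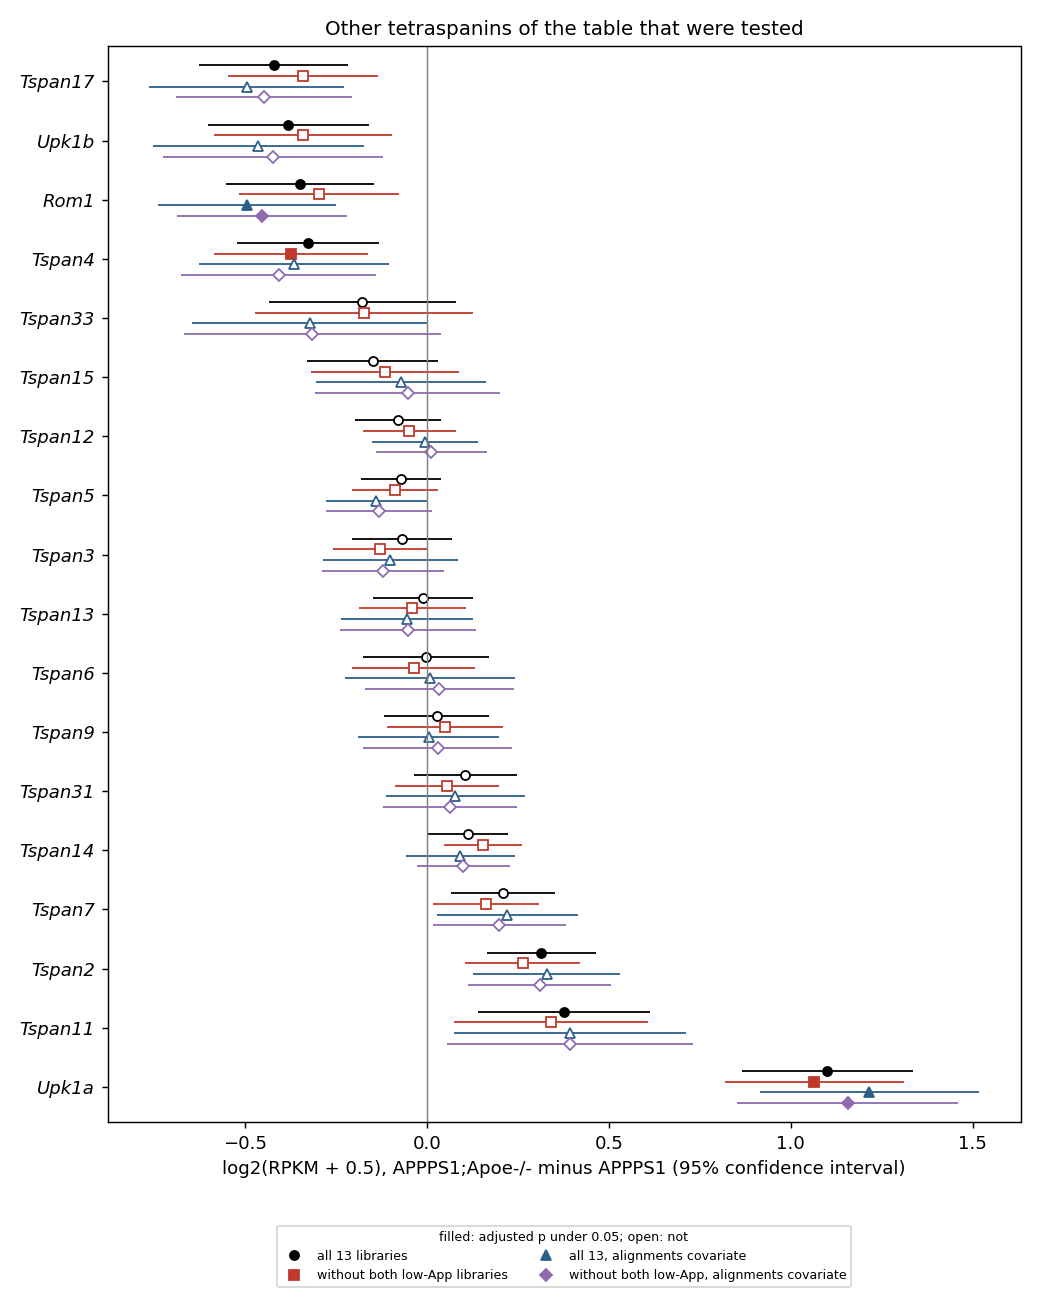
Difference of log2(RPKM + 0.5), APPPS1;Apoe-/- minus APPPS1, for the 18 tested tetraspanins besides the 7 members, under the same 4 fits, with 95% confidence intervals; filled symbols passed an adjusted p of 0.05. Upk1a lies between 1.06 and 1.22 in the 4 fits, and 11 genes have open symbols in the fit of all 13 libraries.

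Of 15 listed tetraspanin partners 13 were tested, 1 was lower, 0 were higher and 12 did not pass, with a median change of -0.09. Without the low-App libraries the counts were the same and the median was -0.07. With the alignments covariate 0 passed. The lower one was Ifitm3, an interferon-induced antiviral gene (43.7 ± 10.2 RPKM in APPPS1;Apoe-/- and 71.0 ± 14.7 RPKM in APPPS1 cortex; SD, n = 7 and n = 6; limma adjusted p = 0.0130). Igsf8, the immunoglobulin-family partner of Cd9 and Cd81, averaged 9.73 ± 1.36 RPKM in APPPS1;Apoe-/- and 11.9 ± 1.16 RPKM in APPPS1 cortex (SD, n = 7 and n = 6, limma adjusted p = 0.0548). The sheddase gene Adam10 changed by -0.09 (95% confidence interval -0.22 to 0.04) and the integrin gene Itgb1 by -0.11 (interval -0.22 to 0.01), and neither passed by limma (adjusted p = 0.366 and 0.241).

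Of the members, Cd37, Cd81 and Cd151 share chromosome 7 with the deleted gene, at 25.5, 123 and 122 Mb from Apoe. Within 30 Mb of Apoe, 12.3% of 438 other tested genes were called lower and 7.31% higher, against 6.95% and 3.57% of 532 genes on the rest of that chromosome and 4.38% and 3.35% on other chromosomes. Without the low-App libraries these shares were 10.3% and 5.48%, 4.89% and 1.32%, and 2.98% and 1.67%. Within 1 Mb of Cd37, 9 of 78 tested genes were lower and 2 higher (6 and 0 without the low-App libraries). Those with the smallest adjusted p, named after their values were seen, were Il4i1 (-0.83), Cyth2 (-0.36) and Syt3 (-0.38), all lower. A change through the deletion of Apoe and one through linked sequence carried with the allele cannot be told apart for Cd37. Cd81 and Cd151, far from Apoe on that chromosome, had larger shares of lower neighbours (4 lower and 2 higher of 21, and 6 lower and 1 higher of 42). Without the low-App libraries the counts were 2 and 2 around Cd81 and again 6 and 1 around Cd151. These windows overlap, and Ctsd, Lsp1 and Tnni2, called lower, and Mob2, called higher, count in both. Around the members on other chromosomes the counts with all libraries were 4 lower and 1 higher of 37 for Cd9, 1 and 2 of 40 for Cd63, 1 and 1 of 21 for Cd53, and 0 and 1 of 13 for Cd82. Without the low-App libraries they were 2 and 1 for Cd9, 1 and 0 for Cd63 and for Cd53, and 0 and 0 for Cd82. Tspan4 is the next tetraspanin gene after Cd151 on the same strand (positions 141475240 to 141493427) and was lower while Cd151 did not pass.

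Genes with the most similar pattern were sought by the mean absolute difference of log2(RPKM + 0.5), each centred on its own mean, over all 13 libraries. Because these include both genotypes and the low-App libraries, a gene with a like change between the groups ranks near by construction. The ranking in part restates that change, and it was not repeated without the low-App libraries. For Cd53 they were Fcgr3, an Fc receptor gene, Unc93b1, which escorts Toll-like receptors, and C1qb, a complement gene (0.05, 0.08 and 0.08). For Cd37 they were Mpeg1, Samsn1 and Ctss (0.10, 0.10 and 0.11), genes of macrophages and leukocytes. Cd9 was closest to Pycard, the inflammasome adaptor gene, Cd84 and Lair1 (0.08 each), which are leukocyte receptor genes. The genes near Cd63 included Npc2, which binds cholesterol in lysosomes, and Ube2m (0.07 each). Cd82 was closest to Tspan2, Ldhb and Gpt (0.06 each). Cd81 was closest to Becn1, Smad4 and Ntan1 (0.03, 0.04 and 0.04), and Cd151 to Csnk1e, Ppp4r1l-ps and Fgfr1op (0.05, 0.06 and 0.07).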

How the data were processed

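The authors deposited RPKM values per gene for 13 cortex libraries in 1 table, with the number of alignments per library. Per the labels' protocols, RNA came from Trizol extraction and libraries from the Clontech SMARTer kit. Per the submitters' processing notes, Partek and mm10 were used. For the aligner, counting rule, strand use and annotation, the sources used here give nothing, so reads of opposite-strand genes annotated across Cd9, Cd37, Cd81, Cd82 and Cd151 cannot be told apart from theirs. The labels do not say how replicates were prepared; the series' design counts mice.

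Values were taken as log2(RPKM + 0.5), and the 13343 genes whose mean reached 0.5 RPKM were fitted with limma 3.58.1 in R 4.3.3 (mean-variance trend, genotype only). Positions are from GENCODE M21 and promoters from RefSeq. Python 3.11.15 with pandas 2.3.3 and matplotlib 3.10.9 did the rest. The fit was tested on simulated data. Members and lists were chosen with earlier results of these data known. Named besides the members were tetraspanins and partners that were called, Tspan7, Igsf8, Adam10 and Itgb1 in any case, up to 3 called genes per marker list and the 3 genes nearest in pattern to each member. Cldn5, Drd2, Snap25, the blood cell markers, the pan-microglia genes that did not pass and the neighbours shared by Cd81 and Cd151 were named after their values were seen. Some genes that this rule selects are not reported here. The choroid plexus, erythroid and striatal lists had 0 called genes of 3, 4 and 5 tested by limma (0, 1 and 4 at an unadjusted p under 0.05). With the alignments covariate 1 striatal gene, Drd2, was called higher. It averaged 2.98 ± 0.761 RPKM in APPPS1;Apoe-/- and 1.84 ± 1.01 RPKM in APPPS1 cortex (SD, n = 7 and n = 6). The bearing of striatal RNA on the members was not tested.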

Additional observations from a re-analysis of the deposited data

How the results depend on the processing

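No paired analysis was possible because the labels give the groups no shared replicate numbers. Over 13 other settings and 13 fits that each left out 1 library, each member kept its direction. Cd9 (-0.64 to -0.50), Cd63 (-0.50 to -0.42), Cd37 (-0.92 to -0.69) and Cd82 (0.30 to 0.38) stayed called in each of the leave-one-out fits. Cd53 (-0.58 to -0.41), with adjusted p from 0.0178 to 0.0687, stayed called in 7. Cd81 (-0.10 to -0.05) and Cd151 (-0.09 to -0.02) were called in none. With 1 library left out, 3 to 4 members were lower and 1 to 1 higher, other tetraspanins numbered 1 to 4 lower and 2 to 4 higher, and 435 to 853 of all genes were lower and 276 to 741 higher, against 633 and 465 with all libraries. The higher genes moved most without APPPS1;Apoe-/- replicate 4 (741) and APPPS1 replicates 2 (290) and 6 (276). The lower other tetraspanins numbered 1 or 2, against 4, in all of these fits but those without APPPS1;Apoe-/- replicates 4 and 7 and APPPS1 replicate 3.

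Without a filter on low values 20915 genes were tested, of which 517 were lower and 354 higher. There 2 members were lower and 1 higher, and Cd53 (-0.52) and Cd37 (-0.85) missed the threshold (limma adjusted p = 0.0851 and 0.0515). Of the other tetraspanins 1 was lower, Tspan17, and 2 were higher. Robust variance estimation ended the call of Cd53 (-0.52, adjusted p = 0.0509). With the alignments covariate 1 member was lower and 0 higher, and 132 and 70 of all genes. Of the other tetraspanins 1 was lower, Rom1, and 1 higher, Upk1a. Cd9 (-0.56), Cd53 (-0.44), Cd37 (-0.76) and Cd82 (0.35) missed the threshold. Without the low-App libraries 440 genes were lower and 237 higher, with 1 other tetraspanin each way, Tspan4 and Upk1a. With the covariate as well the counts were 197 and 84, again with 1 each way. These were Rom1 (-0.45, limma adjusted p = 0.04996) and Upk1a, while Tspan4 (adjusted p = 0.115) and Cd53 (-0.31, adjusted p = 0.0693) missed the threshold. A filter at 1 RPKM left 1 other tetraspanin higher, where 451 of all 11803 genes tested were higher. Median scaling gave 531 lower and 701 higher genes, and quantile normalization 608 and 687, so 43.1% and 46.9% of calls were lower, against 57.7%. With the covariate and without the low-App libraries it was 70.1%. Adding sex, read from Xist and genes of the Y chromosome, as a covariate changed no call of a member (females were 5 of 7 APPPS1;Apoe-/- and 5 of 6 APPPS1 libraries). The cause of each of these shifts was not tested.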

Other observations

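Tetraspanins under the filter were listed at low levels in this cortex. Tspan32, a tetraspanin of blood cells, was at 0.159 to 0.613 RPKM in APPPS1;Apoe-/- and 0.364 to 0.688 RPKM in APPPS1 libraries, and Tspan18 averaged 0.320 ± 0.0713 RPKM in APPPS1;Apoe-/- and 0.367 ± 0.0838 RPKM in APPPS1 cortex (SD, n = 7 and n = 6). Tspan8, an epithelial tetraspanin, was at 0.368 to 0.740 RPKM in APPPS1;Apoe-/- and 0.276 to 0.727 RPKM in APPPS1 libraries. Tspan1 and Tspan10 did not exceed 0.224 and 0.187 RPKM in APPPS1;Apoe-/- libraries, or 0.178 and 0.170 RPKM in APPPS1 libraries. Prph2, the photoreceptor partner of Rom1, reached 0.0434 RPKM in APPPS1;Apoe-/- libraries and was listed at 0 in all 6 APPPS1 libraries.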
